A study of Mus musculus with 12 samples.

Results

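Fc gamma receptors bind the constant part of IgG antibodies, and their transcripts were followed here in bone marrow derived macrophages (BMDMs) given tumor-conditioned medium (TCM) and the Syk inhibitor R788. The members were the 4 mouse receptors Fcgr1, Fcgr2b, Fcgr3 and Fcgr4 and the signalling subunit Fcer1g, and were found by matching their gene identifiers to symbols. All 5 were among the 54232 genes of the count table, and all 5 were among the 16281 genes tested, which had at least 10 counts in at least 2 libraries. BMDMs of wild-type C57BL/6 mice, aged 6 to 8 weeks by the methods of the study, were kept in culture for 5 days and then left for 24 h with or without TCM and with or without 500 nM R788, also known as fostamatinib. There were 6 groups of 2 libraries: NS (no TCM and no R788), R788, NB9464 TCM, NB9464 TCM + R788, NBT3L TCM and NBT3L TCM + R788. NB9464 is a mouse neuroblastoma line with amplified MYCN, and NBT3L is a line without that amplification. Each TCM therefore stands for 1 cell line. By the methods of the study NB9464 cells conditioned DMEM without serum for 48 h, and the sources used here do not say whether the NS and R788 cells received an unconditioned serum-free medium. The labels do not say whether the 2 libraries of a group came from separate mice or cultures, so p-values measure only the spread between these libraries.

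Activating receptors pass their signal through Fcer1g, the common gamma chain, whose immunoreceptor tyrosine-based activation motif is phosphorylated by Src family kinases when IgG complexes cluster the receptors. The phosphorylated motif recruits the kinase Syk, which sets off phagocytosis and cytokine release. Fcgr1 is the high-affinity receptor for IgG, Fcgr3 binds IgG complexes with low affinity, and Fcgr4 prefers certain IgG subclasses. Fcgr2b is the only inhibitory member: it carries an inhibitory motif of its own, does not use Fcer1g and recruits the phosphatase SHIP1. In macrophages the balance between the activating receptors and Fcgr2b is known to set the threshold for responses to antibody-coated targets.

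On mm10, Fcgr1 (ENSMUSG00000015947) lies on chromosome 3 from 96282909 to 96293969 on the minus strand. The other members lie close together on chromosome 1. Fcgr2b (ENSMUSG00000026656) spans 170958617 to 170976547 on the minus strand, Fcgr4 (ENSMUSG00000059089) spans 171018920 to 171029761 on the plus strand, and Fcgr3 (ENSMUSG00000059498) spans 171051174 to 171064935 on the minus strand. Fcer1g (ENSMUSG00000058715) follows from 171229572 to 171234365 on the minus strand. All are protein-coding. The receptors are related in sequence, so reads could in principle be divided between them. Of the distinct 100-base stretches of the Fcgr3 transcripts, 44 of 1733 (2.54%) also occurred in Fcgr2b, and 82 of 5843 (1.403%) of those of Fcgr2b occurred in some other gene. No 100-base stretch of Fcgr1, Fcgr4 or Fcer1g was shared with another gene. The exons of Fcgr2b overlap the antisense gene Gm38204 over 155 bases (2.68% of its exon length), and reads there cannot be told apart where strand was not used in counting.

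The promoters of the 3 activating receptors are shown because these receptors moved apart under R788 and share 1 short motif just upstream of their starts. RefSeq start sites on GRCm38.p6 were used, and all 5 members matched. The letters searched on both strands of the 250 bases upstream were GAGGAA (the core known to bind the macrophage factor PU.1), TTCNNNGAA (the interferon-gamma activated site, GAS) and the interferon-stimulated response element core (GAAA, any 2 bases, GAAA). Capitals mark matches in the 120 bases nearest the start, written 5′ to 3′ along the gene. Fcgr1 is shown from chr3:96293970-96294089 on the minus strand, Fcgr3 from chr1:171059404-171059523 on the minus strand (the first of its 2 listed starts) and Fcgr4 from chr1:171018806-171018925 on the plus strand.
Fcgr1: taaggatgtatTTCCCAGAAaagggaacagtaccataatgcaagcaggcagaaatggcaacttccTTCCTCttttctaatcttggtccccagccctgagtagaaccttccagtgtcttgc
Fcgr3: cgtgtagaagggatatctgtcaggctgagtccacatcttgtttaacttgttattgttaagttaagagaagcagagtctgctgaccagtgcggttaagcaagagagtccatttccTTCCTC
Fcgr4: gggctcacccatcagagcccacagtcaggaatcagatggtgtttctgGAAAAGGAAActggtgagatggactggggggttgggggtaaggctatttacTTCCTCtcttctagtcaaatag

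The PU.1 core occurred on the reverse strand in all 3 activating receptors, starting 55 bases upstream in Fcgr1, 6 in Fcgr3 and 22 in Fcgr4. For Fcgr3 this rests on the first of its 2 listed starts, which lies inside the gene span given above. The other Fcgr3 start was not examined. It was found in 23.3% of all 32851 promoter windows of that length and not in those of Fcgr2b or Fcer1g. The GAS letters were found only in Fcgr1 among the members, 109 bases upstream, and in 7.02% of all windows. The interferon-stimulated core was found only in Fcgr4 among the members, 73 bases upstream, and in 2.98% of all windows. A match describes letters and is not a measured binding site.

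Libraries held 44977847 to 56449685 counts and 16149 to 18343 detected genes. The lowest number of detected genes was in R788 library 8, and the 2 R788 libraries differed from each other more than those of any other group, with a chi-square per degree of freedom of 37.6 against 7.73 to 16.7 in the other pairs. The members' R788 changes without TCM and their interactions are therefore given with and without each of its libraries, and without 1 library the remaining one is assumed to vary as the other groups do. In the comparisons of TCM + R788 with R788, all members stayed past the threshold without either library, and the lists of other genes were fitted with both libraries only. Without R788 library 7 or 8, the differences with NB9464 TCM were 1.2 and 1.117 for Fcgr1, 2.06 and 1.94 for Fcgr4, 0.86 and 0.71 for Fcgr2b, -0.85 and -1.2 for Fcgr3, and 1.46 and 0.98 for Fcer1g. With NBT3L TCM they were 1.10 and 1.01, 1.87 and 1.74, 0.48 and 0.33, -0.72 and -1.07, and 1.52 and 1.04, in the same order. All 10 macrophage markers were detected in every library, and they summed to 73145 to 87704 TPM, a level per gene length (counts divided by length and scaled to the same total in each library). Among markers of other cells that carry Fc receptors, Pax5 of B cells, Ncr1, Prf1 and Eomes of NK cells and Ms4a2 and Fcer1a of mast cells were at 0 in all 12 libraries. Other markers of these lists were not all at 0. Cd79b and Cd22 of B cells ranged from 3.11 to 18.09 TPM and from 1.168 to 3.881 TPM. The NK cell markers summed to at most 0.3122 TPM, and those of mast cells or basophils to at most 1.383 TPM. Neutrophil markers summed to 488 to 511 TPM in NS, 737 to 799 TPM in NB9464 TCM and 852 to 862 TPM in NBT3L TCM. Of the 8 markers S100a8 and Csf3r were higher with both TCMs and Ltf, Mpo and Elane were lower, S100a9 was lower with NBT3L TCM, and Ly6g, not tested, stayed at or below 0.253 TPM. The part of these cells in the results was not tested.

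Per length, Fcer1g was the most abundant member in every group and Fcgr2b the least abundant in every group except the R788 group, where Fcgr2b and Fcgr4 were nearly level. This rank of Fcgr2b depends on the lengths used, all exons of a gene merged: 5790 bases for Fcgr2b and 1256 for Fcgr4. In mean normalized counts, without length, Fcgr2b exceeded Fcgr4 in every group (3306 and 2327 in NS). In NS the mean level was 2906 TPM for Fcer1g, 731.6 TPM for Fcgr3, 341.5 TPM for Fcgr1, 118 TPM for Fcgr4 and 36.4 TPM for Fcgr2b. Fcer1g had rank 22 of 20143 genes above 0 in NS, and Fcgr2b had rank 4062. With NB9464 TCM the same levels were 3607, 382.5, 256.5, 227.6 and 104.9 TPM, and with NBT3L TCM they were 3823, 390.4, 252.6, 198.7 and 100.4 TPM, in the same order of genes. Differences from here on are log2 fold changes of normalized counts, which compare 1 gene between groups. In these bulk samples fewer cells that express a gene and less RNA per cell cannot be told apart.

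The comparison of each TCM with NS asked how medium of the tumor lines alters the receptors. With NB9464 TCM all 5 members passed the DESeq2 threshold of an adjusted p of 0.05, 3 higher (Fcgr2b, Fcgr4, Fcer1g) and 2 lower (Fcgr1, Fcgr3), where 34.1% of all genes passed. With NBT3L TCM 4 of 5 passed, 3 higher and Fcgr3 lower, where 35.3% of all genes passed. Each member had a mean of at least 3997 normalized counts. The shares over all genes, here and below, include genes with far lower counts, for which a difference is harder to call. No share over genes of similar level was computed. Under R788 all 5 members differed between NB9464 TCM and no TCM (background 40.4%, with 20.7% higher and 19.6% lower), and all 5 between NBT3L TCM and no TCM (background 41.4%, with 21.5% higher and 19.9% lower). In both, 4 were higher and Fcgr3 was lower. The median log2 fold change of the 5 members was 0.57 with NB9464 TCM and 0.79 with NBT3L TCM, against 0.02 and 0 over all genes tested. Since both comparisons without R788 use the NS libraries, they are not independent of each other.

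The comparison of R788 with no R788 asked what the Syk inhibitor does to the receptors that signal through Syk. Without TCM 4 of 5 members passed, Fcgr2b and Fcgr3 higher and Fcgr1 and Fcgr4 lower, where 26.6% of all genes passed. In NB9464 TCM only Fcgr1 of the 5 passed, lower, against 14.5% of all genes, and edgeR also called Fcer1g. In NBT3L TCM Fcgr1 and Fcgr2b passed, both lower, against 12.6% of all genes. Against NS, all 5 members passed with the combination of R788 and either TCM (background 39.5% with NB9464 TCM and 39.8% with NBT3L TCM).

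**Figure D1:**
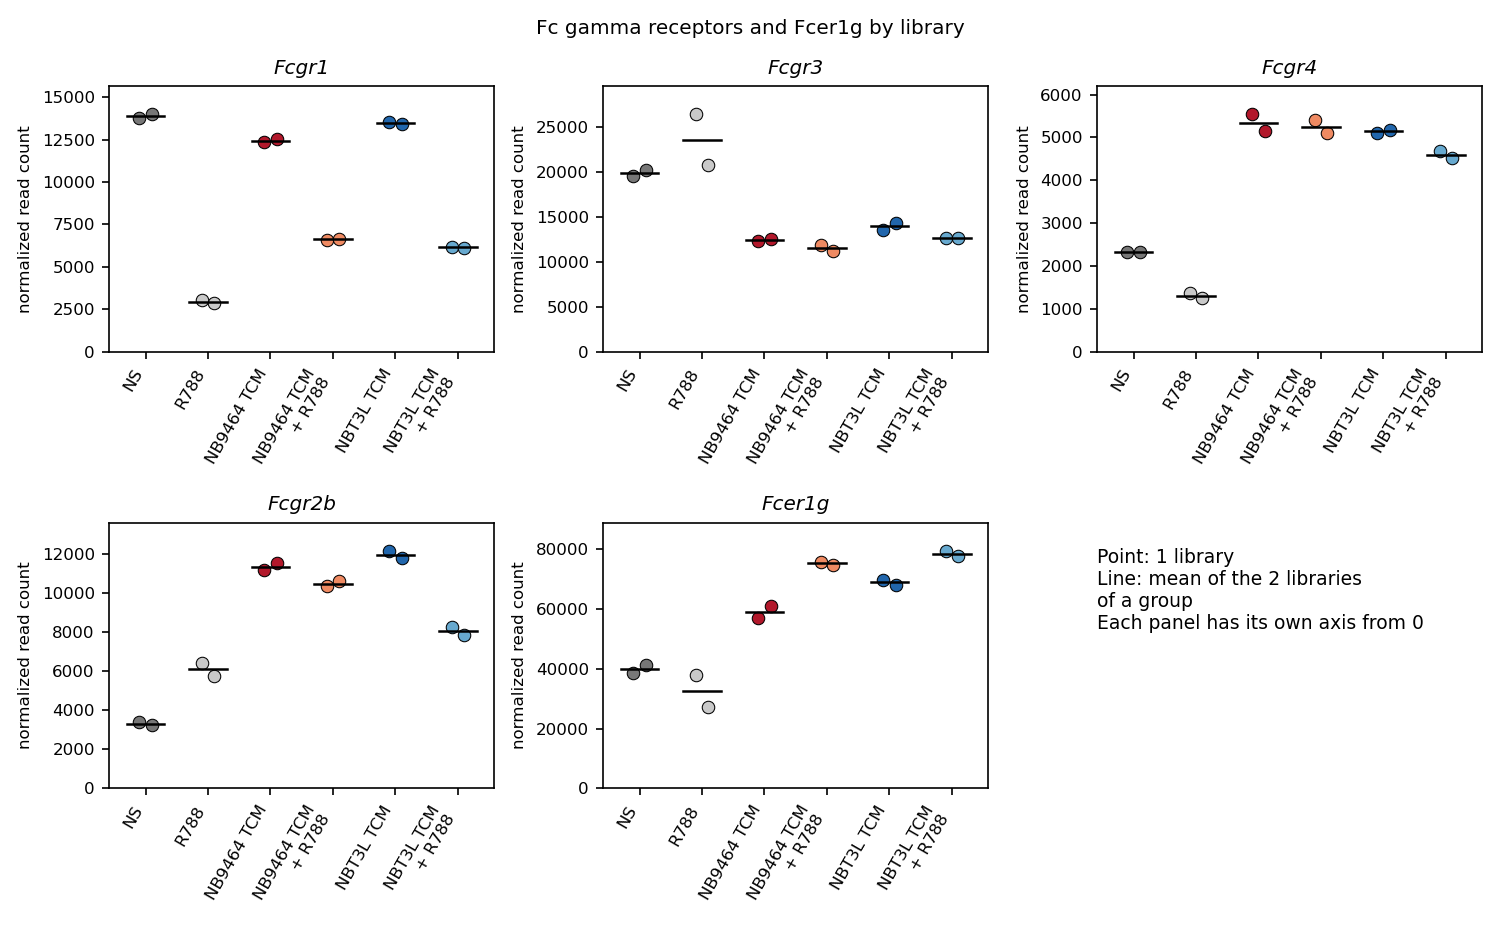
Normalized read counts of each member (vertical axis, linear and starting at 0, 1 scale per panel) in the 6 groups, with 1 point per library and a line at the mean of the 2 libraries. Fcgr1 was lowest in the R788 group, between 2874 and 3045, and Fcgr2b was lowest in NS, between 3233 and 3378.

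Fcgr1, the high-affinity receptor, showed the largest change of any member under R788. It held 13785 and 13973 normalized counts in the NS libraries, 12334 and 12531 in NB9464 TCM, and 13530 and 13424 in NBT3L TCM. With R788 it held 3045 and 2874 without TCM, 6557 and 6670 in NB9464 TCM, and 6198 and 6125 in NBT3L TCM. Every library with R788 was below every library without it, and the R788 libraries without TCM were the lowest. R788 lowered Fcgr1 by a log2 fold change of -2.23 ± 0.056 (SE) without TCM, to 0.213 of the NS level. The DESeq2 adjusted p was too small to be represented as a number above 0, and the quasi-likelihood test of edgeR gave an adjusted p of 5.44e-13. Without R788 library 7 the value was -2.27, and without library 8 it was -2.19. In NB9464 TCM the R788 change of Fcgr1 was -0.91 ± 0.055 (DESeq2 adjusted p = 4.36e-60), and in NBT3L TCM it was -1.13 ± 0.055 (adjusted p = 5.84e-92).

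TCM alone moved Fcgr1 little. The difference from NS was -0.16 ± 0.054 with NB9464 TCM (DESeq2 adjusted p = 0.0111), a call that was lost when any 1 of the 4 libraries compared was left out (adjusted p 0.0575 to 0.11). With NBT3L TCM the difference was -0.04 ± 0.054 (adjusted p = 0.616, 95% interval -0.15 to 0.06). Scaling by library totals, which shifted the median of all genes in that comparison to -0.23, gave -0.27 for Fcgr1. Under R788 the groups with TCM held more Fcgr1 than the group without it, by 1.16 ± 0.057 for NB9464 TCM (DESeq2 adjusted p = 7.04e-92) and 1.06 ± 0.057 for NBT3L TCM (adjusted p = 2.36e-76). In the order of group levels NS, NBT3L TCM and NB9464 TCM stood highest, with no difference past the threshold between one and the next, followed by the 2 groups with TCM and R788, which did not differ from each other (adjusted p = 0.294), and then R788.

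Fcgr3, the low-affinity receptor for IgG complexes and the most abundant of the 4 receptors, fell with TCM. It held 19628 and 20252 normalized counts in NS, 12289 and 12576 in NB9464 TCM, and 13612 and 14324 in NBT3L TCM. With R788 it held 26428 and 20795 without TCM, 11895 and 11230 in NB9464 TCM, and 12716 and 12629 in NBT3L TCM. All 8 libraries with TCM were below all 4 without, and the 2 R788 libraries lay far apart. The log2 fold change against NS was -0.68 ± 0.084 with NB9464 TCM (DESeq2 adjusted p = 6.52e-15), and NBT3L TCM gave -0.51 ± 0.084 (adjusted p = 8.24e-09). Under R788 the same differences were -1.03 ± 0.084 (adjusted p = 4.25e-33) and -0.90 ± 0.084 (adjusted p = 2.13e-25).

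The rise of Fcgr3 with R788 alone rested on 1 library. It was 0.24 ± 0.084 with both (DESeq2 adjusted p = 0.0154), 0.06 without R788 library 7 (adjusted p = 0.451) and 0.41 without R788 library 8 (adjusted p = 2.72e-11). The call was also lost without NS library 1 (adjusted p = 0.109) and when only the 4 libraries compared were fitted (adjusted p = 0.0658). In TCM the R788 difference of Fcgr3 was -0.10 (95% interval -0.27 to 0.06) for NB9464 and -0.14 (95% interval -0.31 to 0.02) for NBT3L, neither past the threshold (adjusted p = 0.463 and 0.302). In NBT3L TCM that difference passed in a fit of only the libraries compared (adjusted p = 0.000509) and without either R788 library (adjusted p = 0.0198 and 0.0178). The 4 groups with TCM were adjacent in the order of levels, and none differed from the next beyond the spread, while NBT3L TCM was above the lowest of them, NB9464 TCM + R788 (0.27, DESeq2 adjusted p = 0.00808).

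Fcgr4, an activating receptor for particular IgG subclasses, rose with either TCM. Its normalized counts were 2325 and 2329 in NS, 5536 and 5158 in NB9464 TCM, and 5103 and 5184 in NBT3L TCM. With R788 they were 1369 and 1257 without TCM, 5407 and 5097 in NB9464 TCM, and 4676 and 4519 in NBT3L TCM. The 8 libraries with TCM lay above both NS libraries, and both R788 libraries lay below them. Against NS, Fcgr4 was higher by 1.2 ± 0.078 with NB9464 TCM (2.30-fold, DESeq2 adjusted p = 4.45e-52) and by 1.14 ± 0.078 with NBT3L TCM (2.21-fold, adjusted p = 4.68e-47). R788 alone lowered it (-0.83 ± 0.081, adjusted p = 8.86e-23), and the values without R788 library 7 or 8 were -0.89 and -0.77. Under R788, TCM raised Fcgr4 by 2.001 ± 0.080 for NB9464 (4.004-fold, adjusted p = 1.72e-137) and by 1.81 ± 0.080 for NBT3L (3.50-fold, adjusted p = 4.76e-112).

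Within TCM the R788 difference of Fcgr4 did not pass the threshold. It was -0.03 (95% interval -0.18 to 0.12, adjusted p = 0.882) in NB9464 TCM and -0.16 (95% interval -0.31 to -0.01, adjusted p = 0.152) in NBT3L TCM. A fit of only the 4 NBT3L libraries called the second difference (-0.16, adjusted p = 0.00944). In the order of levels no group with TCM differed from the next beyond the spread, but the lowest, NBT3L TCM + R788, was below the highest, NB9464 TCM (-0.22, DESeq2 adjusted p = 0.0243). The neutrophil marker sums given above were also higher with TCM than in NS, through S100a8 and Csf3r and with other neutrophil markers lower, and their part in the rise of Fcgr4 was not tested.

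Fcgr2b, the inhibitory receptor, had the largest rise of the 5 members with TCM alone. Its normalized counts were 3378 and 3233 in NS, 11205 and 11540 in NB9464 TCM, and 12171 and 11794 in NBT3L TCM. With R788 they were 6409 and 5782 without TCM, 10367 and 10634 in NB9464 TCM, and 8264 and 7879 in NBT3L TCM. The groups did not overlap between TCM and no TCM, and both R788 libraries were above both NS libraries. The log2 fold change against NS was 1.78 ± 0.067 with NB9464 TCM (3.44-fold, DESeq2 adjusted p = 9.28e-155) and 1.86 ± 0.067 with NBT3L TCM (3.62-fold, adjusted p = 1.41e-167). R788 without TCM raised Fcgr2b by 0.88 ± 0.067 (1.84-fold, adjusted p = 2.36e-37), with 0.81 and 0.95 when R788 library 7 or 8 was left out.

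In TCM the inhibitor had the opposite sign or no called effect on Fcgr2b. R788 lowered it in NBT3L TCM (-0.57 ± 0.066, DESeq2 adjusted p = 2.99e-16), whereas in NB9464 TCM the difference was -0.12 ± 0.065 (95% interval -0.24 to 0.01, adjusted p = 0.242). Under R788 the TCM difference was correspondingly smaller, 0.78 ± 0.066 for NB9464 TCM (adjusted p = 1.86e-31) and 0.41 ± 0.066 for NBT3L TCM (adjusted p = 5.86e-09). With library-total scaling, which moved the median of all genes to -0.28, the latter was 0.12 (adjusted p = 0.108). In the order of levels neither the step from NBT3L TCM to NB9464 TCM nor that to NB9464 TCM + R788 passed the threshold, although the first and last of these differed (0.19, DESeq2 adjusted p = 0.0203), and every later step, to NBT3L TCM + R788, R788 and NS, passed the threshold. B cells also carry Fcgr2b: B cell markers summed to 6.81 to 10.4 TPM in NS, 7.10 to 10.5 TPM in R788, 9.34 to 11.4 TPM in NB9464 TCM, 7.6 to 7.92 TPM in NBT3L TCM and 15.6 to 19.3 TPM in the groups with TCM and R788, mostly from Cd79b, with Pax5 at 0 throughout.

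Fcer1g, the signalling chain shared by the activating receptors, rose with TCM and was highest with TCM and R788 together. Its normalized counts were 38490 and 41295 in NS, 57005 and 61121 in NB9464 TCM, and 69618 and 68101 in NBT3L TCM. With R788 they were 37960 and 27270 without TCM, 75812 and 74641 in NB9464 TCM, and 79372 and 77616 in NBT3L TCM. All libraries with TCM exceeded all libraries without it, and R788 library 8 was the lowest of the 12. Against NS the log2 fold change was 0.57 ± 0.14 with NB9464 TCM (DESeq2 adjusted p = 0.000377), and for NBT3L TCM it was 0.79 ± 0.14 (adjusted p = 2.60e-07). Under R788 TCM raised Fcer1g by 1.21 ± 0.14 (adjusted p = 4.87e-16) for NB9464 and by 1.27 ± 0.14 (adjusted p = 1.14e-17) for NBT3L.

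Whether R788 itself changed Fcer1g depended on the libraries and the tool. Without TCM the difference was -0.29 ± 0.14 (DESeq2 adjusted p = 0.119), while edgeR called it (adjusted p = 0.0427). It was -0.55 without R788 library 7 (adjusted p = 2.65e-24) and -0.07 without library 8 (adjusted p = 0.328). In NB9464 TCM the difference was 0.35 ± 0.14 (adjusted p = 0.072), and in NBT3L TCM it was 0.19 ± 0.14 (adjusted p = 0.453). The standard error of Fcer1g is shared by all 6 groups, and leaving both R788 libraries out of the fit gave 0.35 in NB9464 TCM (adjusted p = 3.32e-14) and 0.19 in NBT3L TCM (adjusted p = 0.000176), a check added after the data had been seen.

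**Figure D2:**
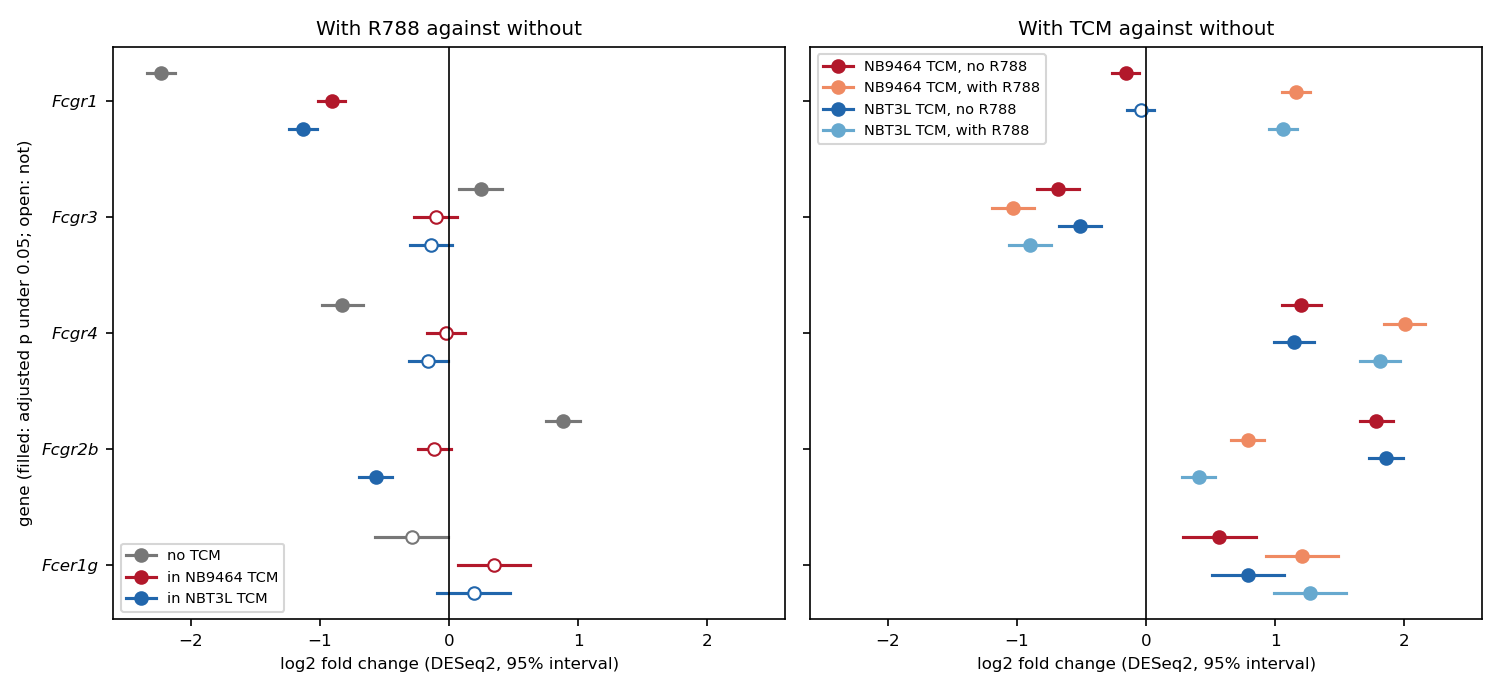
Log2 fold changes (horizontal axis) with 95% intervals for R788 against no R788 in each medium (left) and for TCM against no TCM (right). Filled points passed an adjusted p of 0.05 in DESeq2 and open points did not. R788 lowered Fcgr1 in all 3 media, by -2.23, -0.91 and -1.13, and Fcgr3 is the member that lay below 0 in all 4 TCM comparisons past the threshold.

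The interaction of R788 with TCM tests whether the R788 change in TCM differs from that without TCM. With NB9464 TCM it passed for 5 of 5 members, against 12.5% of all genes, and with NBT3L TCM for 4 of 5, against 10.1% of all genes. For Fcgr1 the R788 decrease was smaller in TCM by 1.32 ± 0.078 (NB9464, DESeq2 adjusted p = 3.91e-61) and 1.10 ± 0.078 (NBT3L, adjusted p = 2.45e-42). For Fcgr4 the corresponding differences were 0.80 ± 0.11 (adjusted p = 4.72e-11) and 0.66 ± 0.11 (adjusted p = 1.35e-07). For Fcgr2b the R788 change was lower in TCM by -0.998 ± 0.094 (adjusted p = 6.58e-24) and -1.45 ± 0.094 (adjusted p = 7.37e-51). Leaving out R788 library 7 or 8 kept these 6 calls, with values of 1.28 to 1.36 and 1.06 to 1.14 for Fcgr1, 0.74 to 0.86 and 0.60 to 0.73 for Fcgr4, and -1.07 to -0.92 and -1.53 to -1.38 for Fcgr2b.

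The interactions of the other 2 members were less stable. For Fcgr3 they were -0.35 ± 0.12 (DESeq2 adjusted p = 0.0262) and -0.38 ± 0.12 (adjusted p = 0.0137), and edgeR called neither (adjusted p = 0.086 and 0.0761). Without R788 library 7 the Fcgr3 values were -0.17 (adjusted p = 0.102) and -0.20 (adjusted p = 0.0398), and without library 8 they were -0.51 and -0.55. For Fcer1g they were 0.64 ± 0.20 (adjusted p = 0.0144) and 0.48 ± 0.20 (adjusted p = 0.105). Without R788 library 7 the Fcer1g values were 0.90 and 0.74, and without library 8 they were 0.42 and 0.26.

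The comparison of the 2 TCMs asked whether medium of the line with amplified MYCN acts differently on the receptors. None of the 5 members was called by DESeq2 between NB9464 TCM and NBT3L TCM, where 9.40% of all genes were called, although 2 members had an unadjusted p under 0.05. The differences ranged from -0.22 (95% interval -0.50 to 0.06) for Fcer1g to 0.06 (95% interval -0.09 to 0.21) for Fcgr4. edgeR called 0 of the 5. Without either R788 library in the fit, Fcgr3 (-0.16, adjusted p = 0.007) and Fcer1g (-0.22, adjusted p = 1.18e-05) passed. With R788 in both media 1 of 5 members was called against 9.62% of all genes (3.53% higher and 6.09% lower in NB9464 TCM + R788): Fcgr2b was higher in NB9464 TCM + R788 by 0.38 ± 0.066 (DESeq2 adjusted p = 3.64e-07). The R788 change of Fcgr2b differed between the TCMs by 0.45 ± 0.093 (adjusted p = 0.000477), the only member of 5 called in a comparison where 0.706% of all genes were. edgeR gave the same difference as 0.44 with an adjusted p of 0.0896.

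The balance between activating and inhibitory receptors was computed within each library as the summed TPM of Fcgr1, Fcgr3 and Fcgr4 over that of Fcgr2b. The ratio was 31.7 and 33.9 in NS and 15.8 and 14.1 in R788. It was 8.40 and 8.12 in NB9464 TCM, 7.65 and 7.13 in NB9464 TCM + R788, 8.15 and 8.62 in NBT3L TCM, and 9.42 and 9.73 in NBT3L TCM + R788. The ratio of every library with TCM was below both R788 libraries, and both of these were below NS. On counts scaled to the library total, without length, the group means kept this order, from 10.9 in NS and 4.56 in R788 to between 2.23 and 2.90 in the groups with TCM. No test was run on these ratios, which summarize the changes of the single genes.

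The composition of the receptor pool shifted with both treatments. Fcgr3 made up 59.3% and 59.9% of the summed TPM of the 4 receptors in NS and 81.9% and 79.4% in R788, while the share of Fcgr1 was 27.9% and 27.7% in NS and 6.32% and 7.36% in R788. Fcgr4 made up 9.71% and 9.52% in NS and 24.2% and 22.6% in NB9464 TCM. Fcgr2b made up 3.06% and 2.87% in NS and 10.6% and 10.96% in NB9464 TCM. In the NBT3L TCM libraries Fcgr4 and Fcgr2b had shares of 21.1% and 21.1%, and 10.9% and 10.4%. The sum of the 4 receptors was 1234 and 1221 TPM in NS and lower in every library with TCM, between 707.4 and 996.5 TPM. TPM is relative to all other transcripts of a library, so this does not by itself show a smaller receptor pool. Between NS and NBT3L TCM, Fcgr1 went from 341.5 to 252.6 TPM but from 13879 to 13477 in mean normalized counts.

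Fcer1g exceeded the activating receptors that use it in every library, and the excess was larger with TCM. The ratio of Fcer1g to the summed TPM of Fcgr1, Fcgr3 and Fcgr4 was 2.38 and 2.50 in NS and 2.48 and 2.22 in R788. It was 4.01 and 4.32 in NB9464 TCM and 4.65 and 4.44 in NBT3L TCM. With TCM and R788 together it was highest, at 6.34 and 6.52 for NB9464 and 6.76 and 6.71 for NBT3L. The NS and R788 libraries overlapped in this ratio, and no library with TCM overlapped with either.

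**Figure D3:**
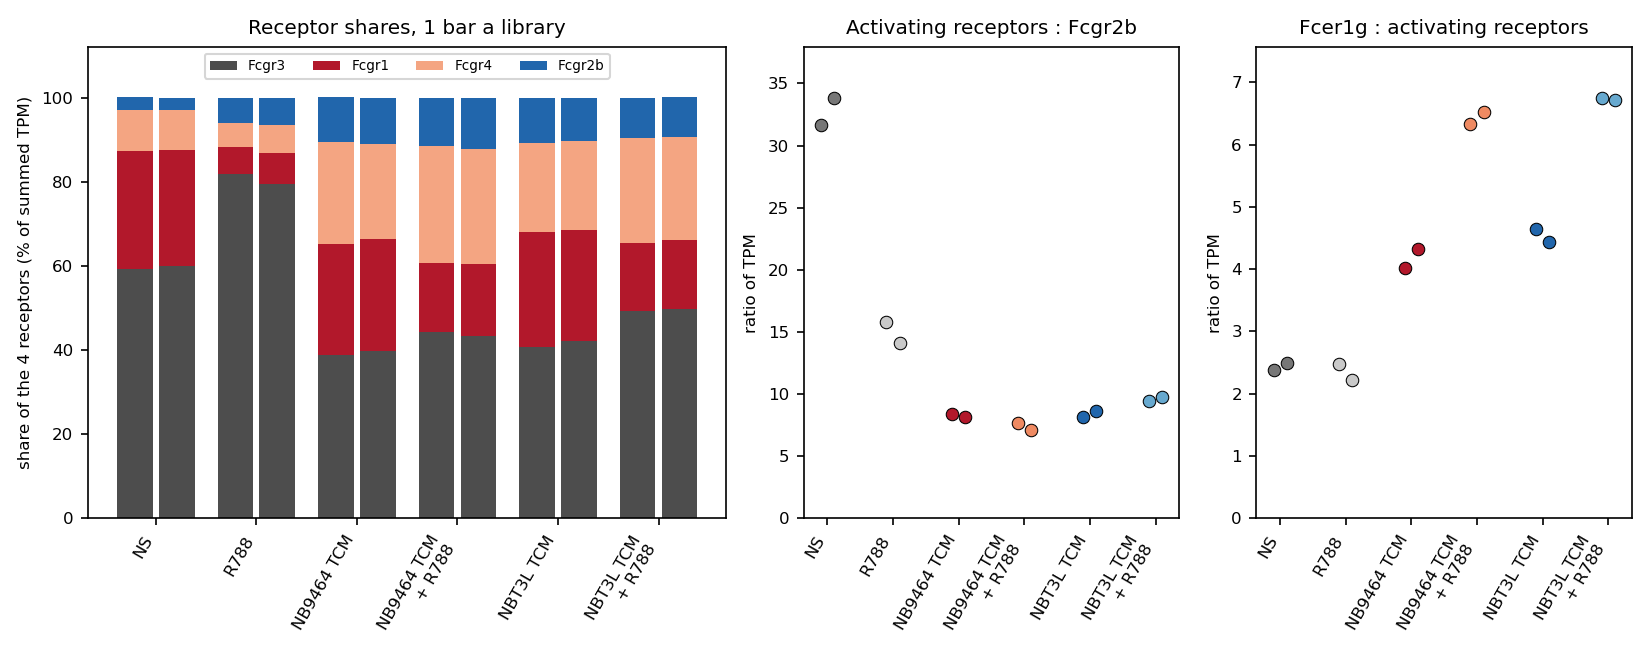
Left, the share of each of the 4 receptors in their summed TPM (vertical axis, percent), with 1 bar per library in the 6 groups. Middle and right, the TPM ratio of the 3 activating receptors to Fcgr2b and of Fcer1g to the activating receptors, with 1 point per library. The first ratio is highest in NS, at 31.7 and 33.9, and the second is highest with TCM and R788, at 6.34 to 6.76.

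Genes that act below the activating receptors moved in both directions with TCM. Of 27 listed genes 14 were higher and 8 lower with NB9464 TCM, where 17.2% and 16.9% of all genes were, with a median of 0.23 against 0.02 over all genes. With NBT3L TCM 12 were higher and 6 lower (backgrounds 18.0% and 17.3%), with a median of 0.20 against 0. Syk, the kinase that R788 inhibits, was higher by 1.18 and 1.32 with the 2 media. Rac2, a small GTPase of phagocyte cytoskeleton and oxidase, was higher by 1.39 and 1.501, and the adaptor Lcp2 by 1.35 and 1.21. The Src family kinase Fyn was lower, at -1.12 and -1.34, as were the kinase Tec, at -0.78 and -0.69, and the exchange factor Vav3, at -0.47 and -0.44. Other Src family kinases of the list were called higher with both media. Among them were Lyn (0.66 and 0.54), Fgr (0.69 and 0.71) and Src (0.68 and 1.29).

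R788 moved fewer of these signalling genes. Without TCM 5 were higher and 6 lower (backgrounds 11.6% and 15.0%), among them Card9 (0.82), Fgr (0.81) and Prkcd (0.47) on the higher side and Blnk (-0.78), Pik3cb (-0.65) and Tec (-0.30) on the lower. In NB9464 TCM 7 were higher and 4 lower (backgrounds 5.79% and 8.70%), led by the adaptor Blnk (0.56) and by Vav3 (-0.61). In NBT3L TCM 8 were higher and 4 lower (backgrounds 5.33% and 7.24%), led by Fgr (0.50) and by the PI3-kinase subunit Pik3cb (-0.57). Syk was called higher with R788 in all 3 media, by 0.26, 0.32 and 0.24.

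Below Fcgr2b, 9 genes of inhibitory signalling and ubiquitin ligases were listed. With each TCM 4 were higher and 4 lower (backgrounds 17.2% and 16.9% for NB9464, 18.0% and 17.3% for NBT3L). The adaptor Dok3 (0.74 and 0.56) and the phosphatases Ptpn6 (0.52 and 0.40) and Ptpn11 (0.52 and 0.41) were higher with NB9464 and NBT3L TCM, and the ligase Cblb (-1.03 and -0.90), the phosphatase Inppl1 (-0.81 and -0.98) and Dok2 (-0.45 and -0.34) were lower. Inpp5d, which encodes SHIP1, was lower by -0.26 and -0.14. With R788 alone 3 were higher and 3 lower (backgrounds 11.6% and 15.0%), with Inpp5d at 0.16 and Cblb at -0.66.

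Among other receptors that use Fcer1g, the C-type lectins rose with TCM. Of 6 listed genes 4 were higher and 1 lower with either medium, where 17.2% and 16.9% of all genes were with NB9464 TCM and 18.0% and 17.3% with NBT3L TCM. Clec4e (Mincle) was higher by 2.98 with NB9464 TCM and 3.67 with NBT3L TCM, Clec4n (Dectin-2) by 2.71 and 3.18, and Clec4d by 0.80 and 1.30. Pira2, an activating receptor of the paired immunoglobulin-like family, was lower, at -1.11 and -0.69. R788 without TCM raised Clec4n by 1.03, Clec4e by 0.49 and Clec4d by 0.32. In TCM the R788 difference of Clec4n was -0.26 with NB9464 and -0.51 with NBT3L, both called. Tyrobp, the adaptor most like Fcer1g in function, was at -0.05 and 0.22 with the TCMs, neither past the threshold.

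Of 12 other Fc receptors and Fc receptor-like genes, 7 were tested. Fcrls, a receptor-like gene of tissue macrophages, was lower with NB9464 and NBT3L TCM, at -1.79 and -2.47, and Fcgrt, the neonatal Fc receptor that recycles IgG, was lower, at -0.72 and -0.88. R788 raised both in every medium. Fcrls rose by 0.57 with R788 alone, by 1.21 when NB9464 TCM was present and by 1.69 when NBT3L TCM was, and Fcgrt rose by 0.99, 0.57 and 0.68. Trim21, a cytosolic antibody receptor, was lower with R788 alone (-0.48) and with NB9464 TCM (-0.64). Fcrl5 was called higher with both TCMs.

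**Figure D4:**
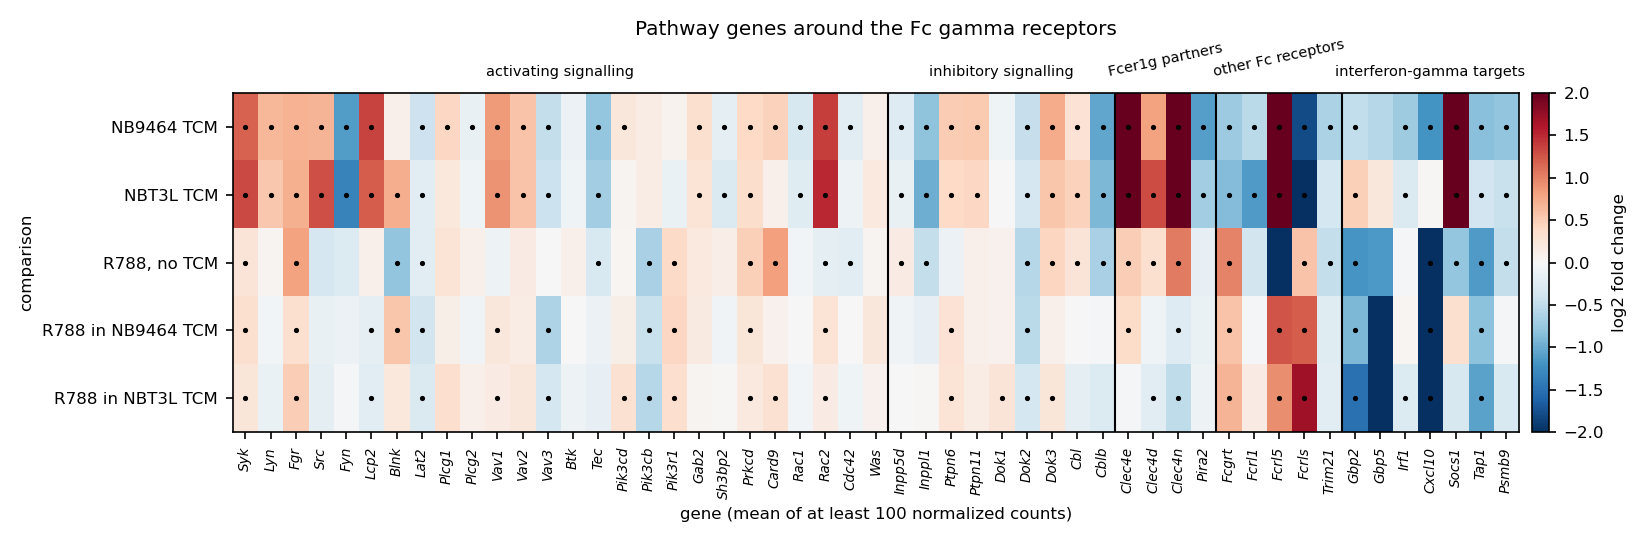
Log2 fold changes (colour, limited to 2 in either direction) of 51 listed genes with a mean of at least 100 normalized counts (horizontal axis, by list) in 5 comparisons (vertical axis). A dot marks an adjusted p under 0.05 in DESeq2. Syk, Lcp2 and Rac2 are higher with both TCMs, and Cxcl10, Gbp2 and Tap1 are lower with R788 in all 3 media.

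Because Fcgr1 is a known target of interferon-gamma and its promoter window holds the GAS letters, 12 interferon-gamma target genes were set beside it. With R788 alone 6 of 12 were called, each lower, where 15.0% of all genes were lower, and the median was -1.09 against 0 over all genes. In NB9464 TCM 4 of 12 and in NBT3L TCM 5 of 12 were called, each lower (backgrounds 8.70% and 7.24%), with medians of -0.86 and -0.97 against 0 over all genes. The chemokine Cxcl10 was at -2.09, -2.02 and -2.10 with R788 in no TCM, NB9464 TCM and NBT3L TCM, the GTPase Gbp2 at -1.17, -0.90 and -1.49, and the peptide transporter Tap1 at -1.13, -0.83 and -1.08. Irf1, a factor that interferon-gamma induces directly, was at -0.03 with R788 alone and did not pass. The part of interferon-gamma, or of any other interferon, in the Fcgr1 decrease was not tested.

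Among 10 transcription factors known to act on these promoters or to follow interferon, R788 lowered Stat2 and Irf9 in all 3 media. Stat2 was at -1.10, -1.34 and -1.46, and Irf9 at -0.34, -0.71 and -0.80, in the order no TCM, NB9464 TCM and NBT3L TCM. Without R788, Stat2 was also lower with NB9464 TCM (-0.95) and NBT3L TCM (-0.44) than in NS, as was Irf9 (-0.41 and -0.25). Irf1 is also in the interferon-gamma list. Spi1, which encodes PU.1, was at 0.06 with R788 alone, not past the threshold, and was higher with NB9464 TCM (0.46) and NBT3L TCM (0.51). Cebpb, a factor of inflammatory gene expression in macrophages, was higher with both TCMs, by 1.09 and 1.16. With R788 alone Cebpb (0.30) and Cebpa (0.66) were called higher, and Stat3, Stat6 and Irf8 were not called. The part of these factors in the changes of the members was not tested.

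Genes lying beside the members were examined to see whether the chromosome regions moved as wholes. Within 100 kb of a member lie 61 other annotated genes, of which 30 were tested. With NB9464 TCM 4 were higher and 2 lower (backgrounds 17.2% and 16.9% of all genes), and with R788 alone 2 were higher and 3 lower (11.6% and 15.0%). With NBT3L TCM 4 were higher and 2 lower (18.0% and 17.3%). In each of these comparisons most of the 30 were not called. Only neighbours that were lower are named here. Pcp4l1 was lower with NB9464 TCM (-3.91) and NBT3L TCM (-4.74). Sdhc, a subunit of succinate dehydrogenase, was lower with R788 alone (-0.35).

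Genes with the most similar pattern were ranked among 10714 genes by Pearson correlation of log2(normalized count + 1) over the 12 libraries, which fall into 6 groups of 2 and share their treatments. For Fcgr1 these were Tpd52 (r = 0.984), Plk2 (0.973) and Nop58 (0.971), and for Fcgr3 they were Gyg (0.983), Sept8 (0.981) and Gpnmb (0.979). For Fcgr4 they were Srpr (0.995), Timm17a (0.988) and Afg3l1 (0.987). For Fcgr2b they were Scamp1 (0.980), Filip1l (0.980) and Edn1 (0.974), and for Fcer1g they were Arf1 (0.997), Txn1 (0.990) and Dad1 (0.990). None of the 5 members was among the 3 nearest genes of another, which does not show that their patterns were unrelated. Between members r ranged from -0.942 for Fcgr3 and Fcgr4 to 0.92 for Fcgr4 and Fcer1g. For Fcgr1 and Fcgr2b it was 0.066.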

How the data were processed

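Poly(A)-selected RNA of 12 BMDM libraries was sequenced. The deposited table holds read counts per Ensembl gene with gene lengths. The submitters' processing notes name mm10, STAR 2.6.1d and Salmon 1.4.0, and the counting program is not given in the sources used here. Between 65.2% and 67.9% of low counts were even, so mates of a pair may have been counted separately. Groups came from the labels, which give 2 libraries per group where the methods state triplicates. Of the gene identifiers 99.9% were in GENCODE M21. The members and gene lists were chosen with earlier results of these data known.

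DESeq2 1.42.0 in R 4.3.3 fitted 6 group means to all 12 libraries, with median-of-ratios size factors (0.808 to 1.25) and Wald tests on unshrunken log2 fold changes over 14 contrasts. Adjustment was by Benjamini-Hochberg over 16281 genes, and genes were called at an adjusted p under 0.05. Errors of fold changes are standard errors, and intervals are 95%. Normalized counts are counts divided by size factors, and TPM was computed from counts and the deposited lengths. From each list up to 3 called genes per direction with a mean of at least 100 normalized counts were named by size, besides Syk and others described by role, which were chosen after their values were seen. Alternatives were edgeR 4.0.16 with TMM scaling, other scalings and filters, halved counts, fits of only the libraries compared, apeglm 1.24.0 shrinkage and leaving out each library. The test scripts were checked on simulated data. Counting error is small at this depth, so the 2 libraries per group limit the precision. A few genes of the lists are counted but not reported here by name.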

Additional observations from a re-analysis of the deposited data

Results flagged for a closer look

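For 10 results the R788 change of a member differed between media by a test of the difference itself, the interaction term in DESeq2. With NB9464 TCM against no TCM the differences in log2 fold change were 1.32 for Fcgr1, -0.998 for Fcgr2b, -0.35 for Fcgr3, 0.80 for Fcgr4 and 0.64 for Fcer1g. With NBT3L TCM against no TCM they were 1.10 for Fcgr1, -1.45 for Fcgr2b, -0.38 for Fcgr3 and 0.66 for Fcgr4. Between NB9464 TCM and NBT3L TCM the R788 change of Fcgr2b differed by 0.45. The 2 sets against no TCM share the NS and R788 libraries, and so are not independent of each other. Groups of 2 libraries are too small for the search for outlying libraries, although the R788 pair was the most unlike.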

How the results depend on the processing

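No called value of a member changed sign. Over the members, 800 of 840 values computed with 1 library left out and 561 of 590 under the other settings kept both direction and side of the threshold, and the remaining values moved across it except for 6 near 0 that changed sign and were past it neither before nor after. With library-total scaling these were Fcgr2b between the TCMs (0.028 against -0.08) and Fcer1g between the TCMs with R788 (0.0065 against -0.06). The R788 difference of Fcgr4 in NB9464 TCM, -0.03 with all libraries, was 0.026 without NB9464 TCM library 3 and 0.015 without NB9464 TCM + R788 library 10 (range with 1 library left out -0.076 to 0.026). The interaction of Fcgr3 with the kind of TCM, 0.04 with all, was -0.0049 without NB9464 TCM + R788 library 9 and -0.0019 without NBT3L TCM library 6 (range -0.0049 to 0.077). Library-total scaling and a fit without both R788 libraries were added after the data had been seen. The count of genes called moved by more than 1.5 times for R788 in NBT3L TCM with only the libraries compared (3678 against 2046). It also did so for the interaction of R788 with the kind of TCM, where 115 genes were called against 21 by edgeR, 271 with only the libraries compared and 233 without both R788 libraries. Leaving out 1 library gave 795 to 2007 genes for NB9464 TCM against NBT3L TCM (1531 with all), 852 to 1981 for the same with R788 (1567), 1432 to 2885 for R788 in NB9464 TCM (2359) and 1173 to 2566 for R788 in NBT3L TCM. It gave 1344 to 2974 and 1038 to 2583 for the interactions with NB9464 TCM (2032) and NBT3L TCM (1649), and 46 to 234 for that with the kind of TCM. The cause was not tested.

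Calls that edgeR changed were those of Fcer1g with R788 alone (adjusted p = 0.0427), in NB9464 TCM (0.0331) and in the interaction with NBT3L TCM (0.0466), which it made, and those of Fcgr3 in both interactions and of Fcgr2b in the interaction with the kind of TCM, which it lost. With only the libraries compared, Fcer1g passed in NB9464 TCM against NBT3L TCM (0.000315) and with R788 in either TCM (2.28e-11 and 1.83e-18), and its interaction with NB9464 TCM did not (0.0654). Fcgr1 in the interaction with the kind of TCM (0.0371) and Fcgr4 between the TCMs with R788 (0.0297) passed there too, and also without R788 library 7 or 8. The Fcer1g interaction with NB9464 TCM was also lost without NS library 2 (0.105), NB9464 TCM library 3 (0.101) or NB9464 TCM + R788 library 9 (0.0889) or 10 (0.0656). The interaction of Fcgr3 was lost without any 1 of 6 libraries for NB9464 TCM (adjusted p up to 0.127) and any 1 of 3 for NBT3L TCM (up to 0.0984). Library-total scaling moved the median of all genes by more than 0.1 in the TCM comparisons, to -0.10 for NB9464 TCM and -0.23 for NBT3L TCM against NS and to -0.20 and -0.28 under R788. With that scaling Fcgr1 and Fcgr4 passed between the TCMs with R788 (0.17 and 0.26). Levels in TPM and in counts scaled to the library total differ by gene length, and the order of the activating to inhibitory ratio over groups was the same on both. No paired analysis was possible because the groups share no library numbers. With 2 libraries per group, small differences such as that of Fcgr1 with NB9464 TCM sit at the limit of what these data resolve.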
